A study of Gallus gallus with 18 samples.

Results

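The genes described here build, remodel or bind the lipid-carrying particles of the blood: the apolipoproteins APOA1, APOA4, APOA5, APOB, APOD, APOH and APOV1, the lipid transfer proteins MTTP and CETP, and the receptor VLDLR. They were chosen by their gene symbol in the platform annotation, and all 10 of the 10 symbols were found, on 13 of the 18226 probe sets of the array. APOA1 had 3 probe sets and APOA4 had 2, and each was read from its brightest probe set, as were all 11528 named genes. Liver RNA of male Cobb 500 broilers was measured on 18 single-colour Affymetrix arrays, 6 for each of 3 diets. The HI0 diet held no insect meal, and the HI7.5 and HI15 diets held 75 and 150 g per kg of Hermetia illucens (black soldier fly) larvae meal, partially defatted, in place of soybean meal, soybean oil and wheat. Birds of every diet, 72 in the trial and 4 to a cage, were fed from the day after hatch for 35 d, with synthetic amino acids adjusted in all diets. The labels do not state that each array is a different bird or name its cage, so p-values measure only the spread between these samples. All levels are log2 signals, on which a difference of 1 is a doubling, and they have no true zero.

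In birds the liver makes most of the body's fatty acids and exports them as triglyceride in very low density lipoprotein (VLDL). The particle forms in the endoplasmic reticulum, where MTTP loads lipid onto a growing molecule of APOB, and in the laying hen estrogen adds APOV1 and the vitellogenins to supply the egg yolk. High density lipoprotein (HDL) is built around APOA1, and CETP exchanges cholesteryl ester and triglyceride between the particle classes.

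The arrays had like medians and high correlations with one another, but many genes varied with the spread of the array, as given with APOV1 below. Their medians lay between 7.23 and 7.31, any pair of arrays had a correlation between 0.966 and 0.990, and the standard deviation (SD) of all signals of an array, called its array spread below, ran from 1.77 to 1.97. Of 12 listed hepatocyte markers 11 were measured, with a summed level, set mostly by the brightest of them, of 17.1 to 17.2 in all 3 diets. Albumin (ALB) lay between 14.41 and 14.54, while FETUB and HPX ranged more widely, from 11.51 to 12.60 and from 11.52 to 12.52. Detection values are not in the table, and dim probe sets were kept. In a piece of liver, fewer cells of a type and less RNA per cell cannot be told apart.

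No difference between diets passed the test for any of the 10 genes. In limma's moderated test over all 18226 probe sets, with Benjamini-Hochberg adjustment and calls at 0.05, 0 of the 10 were called for HI15 against HI0, for HI7.5 against HI0 or for HI15 against HI7.5, and the lowest adjusted p of any of them was 0.999 in each. The share of all probe sets called was likewise 0.0% in each of the 3 comparisons, in the test of any difference among the diets and in the test of a linear slope on the share of meal. At an unadjusted p under 0.05, 0 of the 10 genes passed in each comparison, where 3.14% of all probe sets passed for HI15 against HI0, 3.1% for HI7.5 against HI0, 3.16% for HI15 against HI7.5 and 2.87% for any difference among the diets. For every one of the 10 genes the 6 livers of each diet overlapped with those of each other diet. Ranges without overlap were found for 0.115% of all probe sets between HI15 and HI0, 0.0988% between HI7.5 and HI0 and 0.0658% between HI15 and HI7.5.

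**Figure D1:**
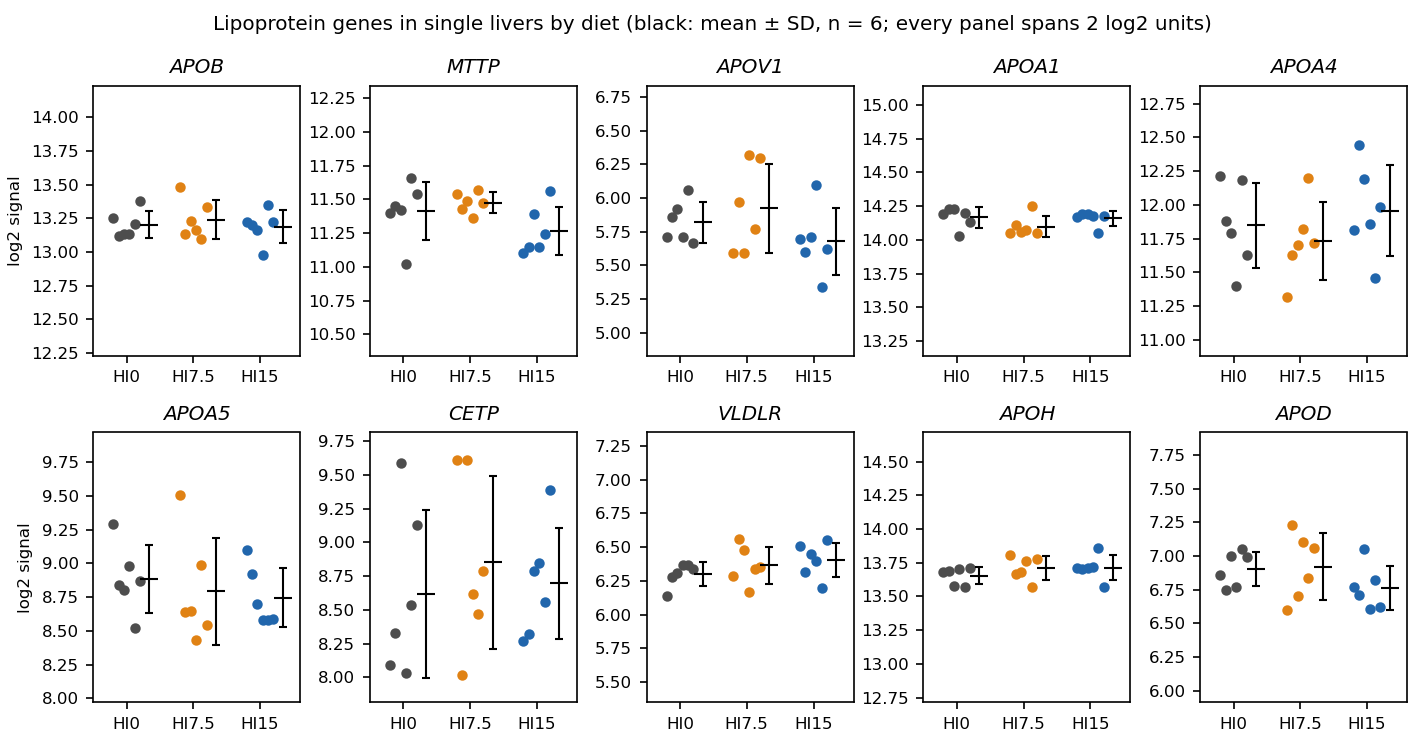
Log2 signal of each of the 10 genes (vertical axis, every panel 2 log2 units high) in single livers by diet (horizontal axis); each point is 1 array, and the black bar gives the mean ± SD of 6. The diets overlap in every panel, and the points of CETP lie far apart within each diet, from 8.02 to 9.61, while those of APOA1 and APOH are packed closely.

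The plot of single livers shows that the genes differ far more in how much livers scatter than in how the diets lie. Its panels share 1 height, so the scatter can be compared between genes. The level cannot, since the signal of a probe set also depends on its probes.

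APOB, the structural protein of VLDL, and MTTP, which loads lipid onto it, were the 2 genes of particle assembly. APOB was 13.20 ± 0.10 (SD, n = 6) in HI0, 13.24 ± 0.14 in HI7.5 and 13.19 ± 0.12 in HI15. Its livers ran from 13.12 to 13.38 in HI0, with a median of 13.17, from 13.10 to 13.48 in HI7.5, with a median of 13.20, and from 12.98 to 13.35 in HI15, with a median of 13.21. The highest APOB liver was in HI7.5 and the lowest in HI15, and most livers of all diets lay in the same narrow band. HI15 differed from HI0 by -0.02 ± 0.09 (SE), a ratio of 0.990 with a 95% confidence interval from 0.875 to 1.12.

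MTTP had the smallest unadjusted p of the 10 genes. It ran from 11.02 to 11.66 in HI0 with a median of 11.44, from 11.36 to 11.57 in HI7.5 with a median of 11.48, and from 11.10 to 11.56 in HI15 with a median of 11.20. The HI7.5 livers were the most alike, 1 HI0 liver was lower than every HI15 liver, and 5 of the 6 HI15 livers were below the mean of HI0 and of HI7.5. The means were 11.42 ± 0.22 (SD, n = 6) in HI0, 11.48 ± 0.08 in HI7.5 and 11.27 ± 0.18 in HI15. HI15 minus HI7.5 was -0.21 ± 0.10 (SE), a ratio of 0.864 with an interval from 0.745 to 1.00 (adjusted p = 0.999). HI15 minus HI0 was -0.15 ± 0.10, a ratio of 0.901 with an interval from 0.778 to 1.05, and HI7.5 minus HI0 was 0.06 ± 0.10. Over the 18 omissions of a sample the HI15 minus HI7.5 difference of MTTP lay between -0.27 and -0.18. It passed the unadjusted level of 0.05 in 5 of these omissions and in 8 of 9 other settings, and HI15 minus HI0 did so in 1 omission, of HI0 replicate 4, but no adjusted p passed. The main unadjusted p of HI15 minus HI7.5, 0.0513 in the moderated test, already lay beside that level. Over the 9 settings, which reuse the same arrays, it ran from 0.0348 to 0.0560. Between livers MTTP had a negative correlation with the mean of 8 measured of 9 listed lymphocyte markers, which did not pass at 0.05 (r = -0.73, rho = -0.64, adjusted p = 0.103 over 110 relations of the genes with marker lists, permutation test). Its r was -0.89 within HI0, -0.52 within HI7.5 and -0.72 within HI15. Without the 2 end livers, those farthest from the median of the marker mean, r was -0.51. The summed lymphocyte level spanned 10.2 to 11.4 in HI0, 10.2 to 11.0 in HI7.5 and 10.5 to 11.1 in HI15. For HI15 minus HI7.5, 4 of these markers were above 0 and 4 below, with a median of 0.0025. For HI15 minus HI0 and for HI7.5 minus HI0, 3 were above and 5 below, with medians of -0.079 and -0.075. Here and below, the summed level of a list weights its brighter markers more than the mean used for r does. The part of these markers in the MTTP values was not tested.

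APOV1, the VLDL protein of the laying hen, was read in male birds, in which estrogen is low. It ran from 5.67 to 6.06 in HI0 with a median of 5.79, from 5.59 to 6.32 in HI7.5 with a median of 5.87, and from 5.34 to 6.10 in HI15 with a median of 5.66. A pair of HI7.5 livers, at 6.30 and 6.32, were the highest and 1 HI15 liver was the lowest, with the rest mixed. HI15 minus HI7.5 was -0.24 ± 0.14 (SE, adjusted p = 0.999), HI15 minus HI0 was -0.14 ± 0.14 and HI7.5 minus HI0 was 0.10 ± 0.14. With the array spread as a covariate, an alternative added after the data were seen, HI15 minus HI7.5 was -0.30 and HI7.5 minus HI0 was 0.24. Both were past the unadjusted level of 0.05, and 0 probe sets were called. Of 18226 probe sets, 1225 passed that level there for HI15 minus HI7.5, in place of 576, and 751 for HI7.5 minus HI0, in place of 565. HI15 minus HI7.5 of APOV1 also passed it after quantile normalization and with array weights, where 747 and 845 probe sets passed. It did so in 3 of 18 omissions. The yolk precursors VTG1 and VTG2, which estrogen also induces in hens, had diet means of 5.39 to 5.42 and 5.17 to 5.25. Of 3 measured pancreas markers, AMY2A lay between 5.48 and 6.21, CEL between 5.55 and 6.32 and CTRC between 6.12 and 6.77. Without detection values, APOV1 transcript and background signal cannot be told apart at such a level.

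APOA1 is the main protein of HDL, and APOA4 is an exchangeable apolipoprotein of triglyceride-rich particles and HDL. APOA1 ran from 14.03 to 14.23 in HI0 with a median of 14.20, from 14.05 to 14.25 in HI7.5 with a median of 14.07, and from 14.05 to 14.19 in HI15 with a median of 14.18. Of the HI7.5 livers 5 of 6 lay below the HI0 mean, while 1 was the highest of all 18. The differences were -0.01 ± 0.07 (SE) for HI15 minus HI0, -0.07 ± 0.07 for HI7.5 minus HI0 and 0.06 ± 0.07 for HI15 minus HI7.5. The first of these had no stable sign, being 0.01 after quantile normalization and 0.01 and 0.08 on the other 2 probe sets of APOA1.

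APOA4 ran from 11.40 to 12.21 in HI0 with a median of 11.84, from 11.32 to 12.20 in HI7.5 with a median of 11.71, and from 11.46 to 12.44 in HI15 with a median of 11.92. High and low livers occurred in every diet, and the highest was in HI15. HI15 minus HI7.5 was 0.23 ± 0.17 (SE), a ratio of 1.17 with an interval from 0.918 to 1.49. HI15 minus HI0 was 0.11 ± 0.17 and HI7.5 minus HI0 was -0.12 ± 0.17. Single livers moved these values. Without HI15 replicate 2, HI15 minus HI0 was 0.01 and HI15 minus HI7.5 was 0.13. HI7.5 minus HI0 was -0.03 without HI7.5 replicate 1 and -0.21 without HI7.5 replicate 5. Of the 6 HI7.5 livers 5 lay below the HI0 mean, and of the 6 HI15 livers 5 lay above the HI7.5 mean. The second APOA4 probe set gave 0.13 ± 0.14 for HI15 minus HI7.5.

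APOA5, in mammals an activator of triglyceride clearance by lipoprotein lipase, ran from 8.52 to 9.29 in HI0 with a median of 8.86, from 8.43 to 9.51 in HI7.5 and from 8.58 to 9.10 in HI15, both with a median of 8.65. The highest liver of each diet lay well above its median, and the HI15 livers had 3 almost equal low values. HI15 minus HI0 was -0.14 ± 0.16 (SE) and HI7.5 minus HI0 was -0.09 ± 0.16, the latter -0.23 without HI7.5 replicate 1 and -0.01 without HI0 replicate 1. CETP was 8.62 ± 0.62 (SD, n = 6) in HI0, 8.85 ± 0.64 in HI7.5 and 8.70 ± 0.41 in HI15. Its livers ran from 8.03 to 9.59, from 8.02 to 9.61 and from 8.27 to 9.39, so that the diets covered nearly the same ground. HI15 minus HI0 was 0.08 ± 0.29 (SE), a ratio of 1.06 with an interval from 0.696 to 1.60, and HI7.5 minus HI0 was 0.24 ± 0.29, a ratio of 1.18 with an interval from 0.775 to 1.79. With array weights both turned to negative values, -0.11 and -0.05, and the first changed sign in 3 of 18 omissions.

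VLDLR takes up triglyceride-rich particles and, in the hen, carries yolk lipoproteins into the oocyte. It was 6.30 ± 0.09 (SD, n = 6) in HI0, 6.37 ± 0.14 in HI7.5 and 6.41 ± 0.13 in HI15, with 5 of 6 HI15 livers above the HI0 mean. HI15 minus HI0 was 0.10 ± 0.08 (SE). The range of VLDLR over all livers, 6.14 to 6.56, lay within that of the pancreas marker CTRC given above. Between livers VLDLR had a correlation with the mean of 7 measured of 11 listed stellate cell and fibroblast markers that did not pass at 0.05 (r = 0.62, rho = 0.66, adjusted p = 0.119, permutation test). All 7 of those markers had a higher mean in HI15 than in HI0, by a median of 0.20, with 1 of them at an unadjusted p under 0.05. All 7 were also higher in HI15 than in HI7.5, by a median of 0.29 with 3 at that level, while in HI7.5 against HI0 2 were above and 5 below, with a median of -0.05, where VLDLR had 0.06 ± 0.08 (SE). In every comparison 0 of them were called. The summed level of these markers spanned 11.7 to 12.3 in HI0, 11.3 to 12.2 in HI7.5 and 11.7 to 12.7 in HI15. Their part in the VLDLR values was not tested.

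APOH, or beta-2-glycoprotein I, binds phospholipid in plasma, and APOD is a lipocalin that carries small lipids. APOH was 13.66 ± 0.06 (SD, n = 6) in HI0, 13.71 ± 0.09 in HI7.5 and 13.71 ± 0.09 in HI15, so that each meal diet minus HI0 was 0.06 ± 0.07 (SE). APOD was 6.90 ± 0.13 (SD, n = 6) in HI0, 6.92 ± 0.25 in HI7.5 and 6.76 ± 0.16 in HI15, with 5 of 6 HI15 livers below the mean of each other diet. Its HI15 minus HI0 difference was -0.14 ± 0.11 (SE) and its HI15 minus HI7.5 difference -0.16 ± 0.11. APOD went with the mean of 7 measured of 8 listed intestinal markers between livers (r = 0.81, adjusted p = 0.0979, permutation test), with r of 0.88 within HI0, 0.98 within HI7.5 and -0.02 within HI15. The gut fatty acid binding protein FABP2 in that list lay between 3.52 and 4.60, and the summed level of the list spanned 8.674 to 8.929 in HI0, 8.495 to 8.996 in HI7.5 and 8.772 to 8.883 in HI15. The markers of the list were dim, with medians from 4.15 for FABP2 to 6.915 for CDX1. APOD also had an r of -0.46 with the array spread. The part of the list or of the array spread in the APOD values was not tested.

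**Figure D2:**
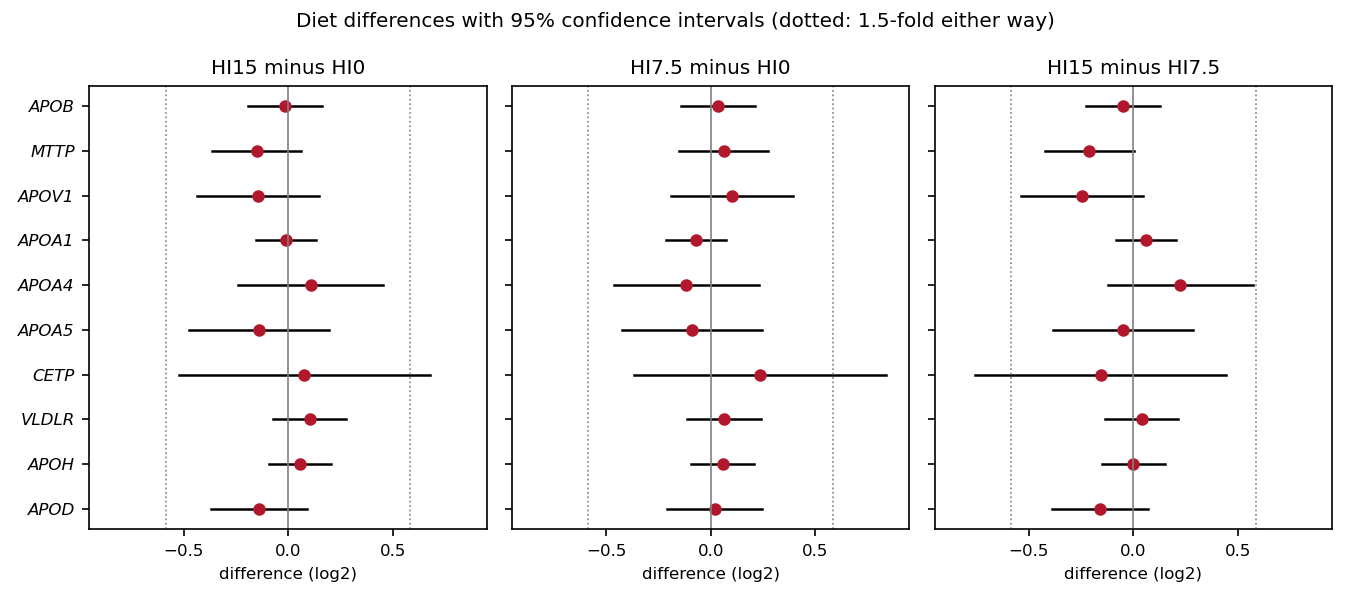
Difference between diets in log2 signal (horizontal axis) for each gene (vertical axis), with the 95% confidence interval of the limma fit over 18 arrays; dotted lines mark 1.5-fold either way. Only the intervals of CETP cross a dotted line; those of the other 9 genes stay inside in all 3 comparisons.

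The plot of differences with their intervals gives the sizes of change that the data leave possible. For HI15 against HI0, 4 of the 10 genes were above 0 and 6 below, with a median of -0.01, beside a median of 0.00 over all probe sets. For HI7.5 against HI0, 7 were above and 3 below with a median of 0.05, beside -0.01 over all probe sets. For HI15 against HI7.5, 3 were above and 6 below with a median of -0.05, beside 0.01, and APOH was at 0.00. The 95% interval lay within 1.5-fold either way for 9 of 10 genes in each comparison, as it did for 91.4, 91.2 and 91.3% of all probe sets. It lay within 1.2-fold for 3, 5 and 4 of the 10 genes, beside 20.8, 21.5 and 21.2% of all probe sets. CETP was the exception at 1.5-fold, and its intervals lay within 2-fold. The slopes per 10 percentage points of meal ran from -0.10 ± 0.07 (SE) for MTTP to 0.07 ± 0.11 for APOA4.

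Between single livers of a diet the genes fell far apart. The pooled SD within diets was 0.57 for CETP, larger than that of 98.9% of the 11528 named genes and of 98.8% of genes of like mean signal. The highest CETP liver was 3.01 times the lowest. APOA4 and APOA5 followed with SDs of 0.31 and 0.30, at the 87.7 and 85.2 percentiles, and their highest livers were 2.17 and 2.11 times their lowest. APOV1 had an SD of 0.25, APOD 0.19 and MTTP 0.17, beside a median of 0.21 over the named genes. APOB and VLDLR had SDs of 0.12, at the 7.47 and 6.39 percentiles, and among genes of like signal at 15.2 and 1.299. APOH, and APOA1 on its brightest probe set, were among the steadiest genes of the array. Their SDs were 0.08 and 0.07, at the 0.416 and 0.147 percentiles, and their highest livers were 1.22 and 1.16 times their lowest. Among genes of like signal they stood at the 3.13 and 1.97 percentiles, in a table whose highest signal was 15.08. For APOB, APOH and APOA1 these sets held 526, 511 and 506 genes, mostly dimmer than the gene itself. Steadiness and a place at the top of the scale are therefore not told apart by these percentiles. On its brightest probe set APOA1 had SDs of 0.08 in HI0, 0.08 in HI7.5 and 0.05 in HI15. In the same order they were 0.13, 0.06 and 0.10 on the second brightest and 0.09, 0.16 and 0.12 on the dimmest.

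**Figure D3:**
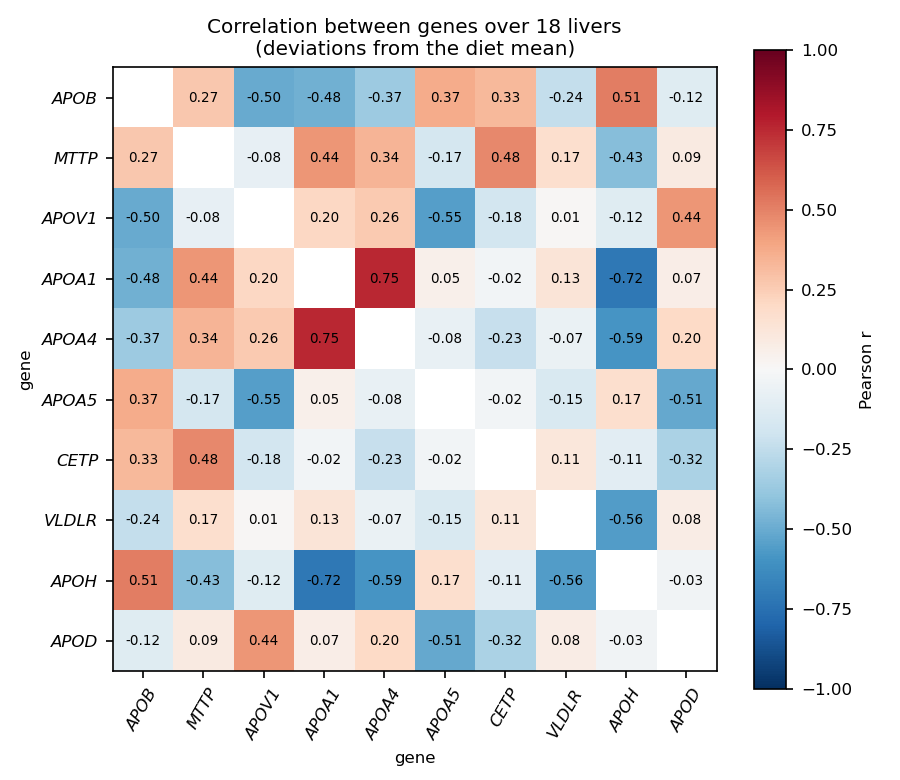
Pearson correlation between the genes (both axes) over 18 livers, computed on deviations from the diet mean, with the value in each cell. APOA1 with APOA4 (0.75) and APOA1 with APOH (-0.72) passed the adjusted threshold of 0.05 over 45 pairs, both on the brightest APOA1 probe set. The assembly pair APOB and MTTP is at 0.27.

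Which genes rose and fell together from liver to liver was asked on deviations from the diet means. Of the 45 pairs 2 passed after Benjamini-Hochberg adjustment in a two-sided permutation test within diets. APOA1 and APOA4 were correlated at r = 0.75 (rho = 0.74, p = 0.0010, adjusted p = 0.0272), with r of 0.72 within HI0, 0.80 within HI7.5 and 0.80 within HI15. APOA1 and APOH ran opposite at r = -0.72 (rho = -0.69, p = 0.00121, adjusted p = 0.0272), with -0.53 within HI0, -0.88 within HI7.5 and -0.78 within HI15. An r of this size or larger, of either sign, was had with APOA1 by 0.0781% of the named genes for the first pair and by 0.243% for the second. With APOA4 the share was 0.104% and with APOH 0.442%. The extremes can be read from single livers. The HI7.5 liver with the highest APOA1, at 14.25, had APOA4 at 12.20 and APOH at 13.57, while the HI15 liver with the lowest APOA1 of its diet, at 14.05, had APOA4 at 11.46 and APOH at 13.86. Both correlations were computed on the brightest APOA1 probe set only. On the second brightest, that HI7.5 liver was again the highest of its diet, at 13.52, but that HI15 liver was also the highest, at 13.53. The HI15 liver with the highest APOA4, at 12.44, was there the lowest of its diet, at 13.30.

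Both relations depended on how the arrays were scaled and, in livers of HI15 and HI0, on which APOA1 probe set was read. For APOA1 and APOA4 r was 0.67 after quantile normalization (adjusted p = 0.217), 0.63 with array medians subtracted (adjusted p = 0.203) and 0.59 without the 2 end livers of APOA1 (permutation p = 0.0555). For APOA1 and APOH r was -0.64, -0.48 and -0.69 in the same order, with adjusted p of 0.217 and 0.281 under the first 2 and a permutation p = 0.0176 without the end livers. Omitting any 1 liver left r between 0.69 and 0.79 for the first pair and between -0.78 and -0.61 for the second. On the second brightest APOA1 probe set, the HI15 liver with the highest APOA4 had the lowest APOA1. The HI15 liver with the lowest APOA4 and the highest APOH had the highest APOA1 there. In HI0 the liver with the highest APOA1 there, replicate 6 at 13.59, had APOA4 at 11.63 and the highest APOH of its diet, 13.71. The lowest there, HI0 replicate 4 at 13.19, kept to both relations, with APOA4 at 11.40 and APOH at 13.70. Correlations of that probe set with APOA4 and APOH were not tested, so both relations are shown for the brightest APOA1 probe set only. The other probe sets of APOA1 followed its brightest only in part, at r = 0.33 for the second brightest and 0.62 for the dimmest. The 2 probe sets of APOA4 had an r of 0.88. The reason for this was not tested.

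In RefSeq's chicken assembly GRCg7b, APOA5, APOA4, APOC3 and APOA1 lie next to one another in this order, with 1 microRNA gene beside APOA1. APOA5 had r = 0.05 to APOA1 and -0.08 to APOA4, and the difference of these from the 0.75 between APOA1 and APOA4 was not tested. APOC3 had no probe set of a single symbol here and was not analysed. The matrix of correlations showed 4 more pairs at an unadjusted p under 0.05, which did not pass adjustment: APOA4 with APOH at -0.59, APOH with VLDLR at -0.56, APOA5 with APOV1 at -0.55 and MTTP with CETP at 0.48. An r as large was common for some of these, reached by 22.6% of named genes with APOV1 for its pair with APOA5 and by 9.53% with MTTP for its pair with CETP. APOB and MTTP, which act on the same particle, had r = 0.27 (permutation p = 0.257). Over all 45 pairs the median r was -0.02, and 21 pairs were above 0.

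**Figure D4:**
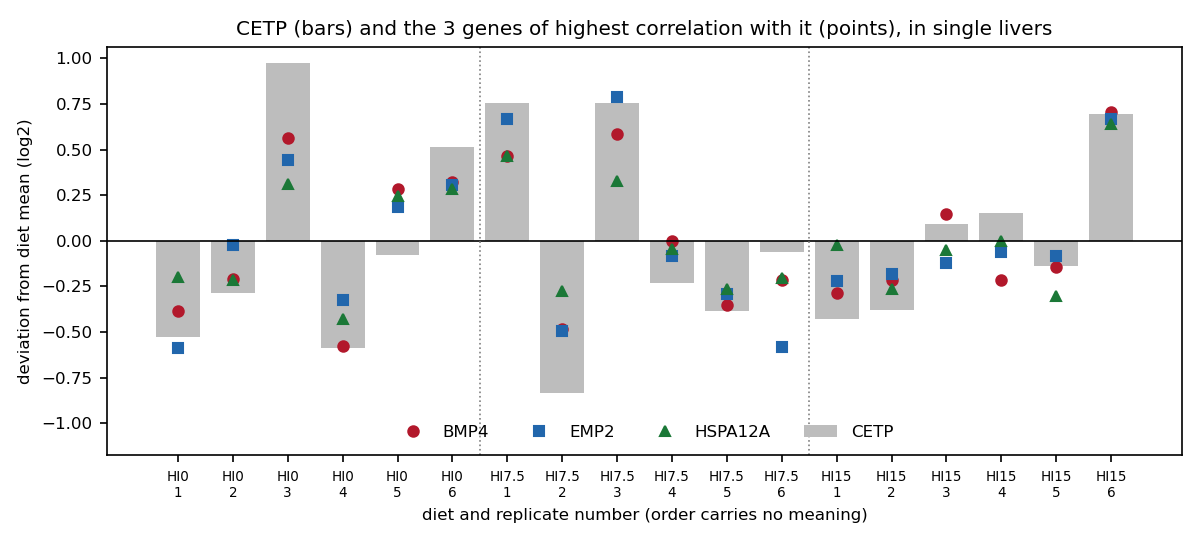
Deviation from the diet mean in log2 signal (vertical axis) in each of the 18 livers (horizontal axis, by diet and replicate) for CETP (bars) and the 3 genes most correlated with it (points). The 5 livers with the tallest CETP bars, HI0 replicates 3 and 6, HI7.5 replicates 1 and 3 and HI15 replicate 6, have all 3 genes above 0.

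CETP scattered most, and 3 genes outside the set had the highest r with it among all named genes over the 18 livers. They were BMP4, a secreted growth factor, at r = 0.92 (rho = 0.90), EMP2, a small membrane protein, at 0.88, and HSPA12A, a distant member of the heat shock protein family, at 0.86. They were picked as the highest, so no test is given. BMP4 and CETP had r of 0.92 within HI0, 0.96 within HI7.5 and 0.89 within HI15. Their r was 0.92 after quantile normalization and 0.91 without the 2 end livers. These values come from the livers used to pick BMP4 and give no separate support. BMP4 itself ran from 7.57 to 9.03. The plot of CETP beside these genes shows high and low livers in each diet, and HI15 minus HI0 was 0.18 ± 0.22 (SE) for BMP4, -0.04 ± 0.23 for EMP2 and -0.02 ± 0.17 for HSPA12A. CETP also had a correlation with the mean of 6 measured of 7 listed endothelial markers, which did not pass at an adjusted p under 0.05 (r = 0.66, rho = 0.63, adjusted p = 0.103, permutation test). Its r was 0.48 within HI0, 0.81 within HI7.5 and 0.77 within HI15. The summed endothelial level spanned 11.1 to 12.1 in HI0, 11.4 to 12.1 in HI7.5 and 11.4 to 12.2 in HI15. The part of these markers in the CETP values was not tested.

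The other 3 genes of wide scatter had their own closest genes. For APOA4 these were MRM3 (r = 0.80), a mitochondrial RNA methyltransferase, DYSF (0.78), a membrane repair protein, and ATP8B2 (0.77), a lipid flippase. For APOA5 they were CHCHD4 (0.83), which imports proteins into mitochondria, MFSD14A (0.82) and RNF20 (0.80), a histone ubiquitin ligase, the last falling to 0.48 without the 2 end livers. For APOV1 they were ESRRB (0.94), ZIC1 (0.90) and CACNA1G (0.88), and with array spread removed these became 0.84, 0.72 and 0.74. Like APOV1, ESRRB and ZIC1 were dim, at 5.73 to 6.56 and 5.09 to 6.07, and CACNA1G ran from 6.66 to 7.70.

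**Figure D5:**
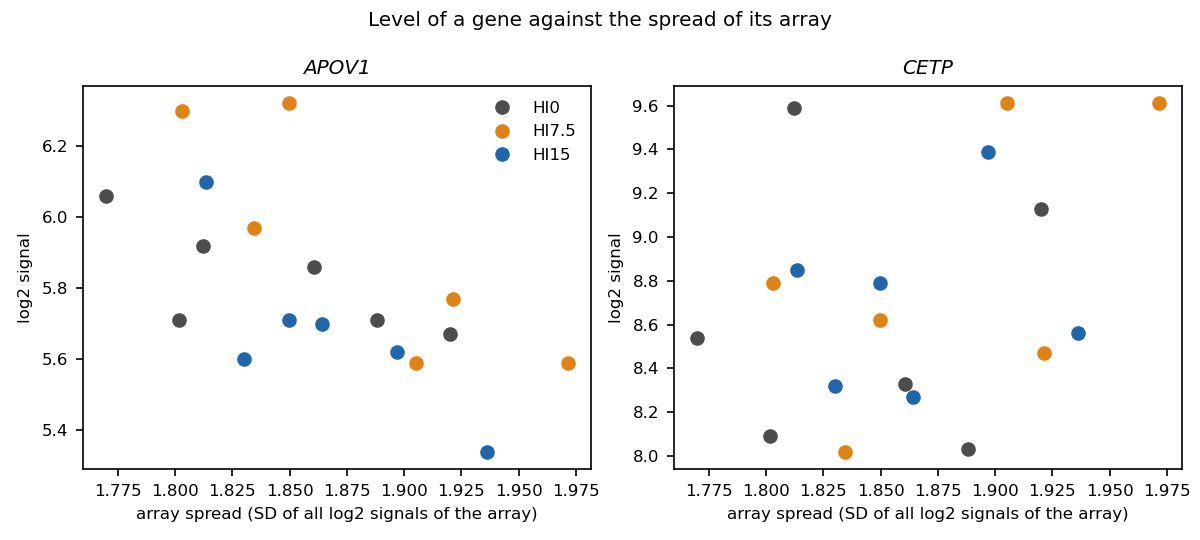
Log2 signal of APOV1 (left) and CETP (right) against the array spread, the SD of all log2 signals of the array (horizontal axis), with 1 point per liver coloured by diet. APOV1 is lower on arrays of wider spread in every diet (r = -0.79); CETP shows no such relation at the threshold (r = 0.31).

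The plot of signal against array spread concerns how far APOV1 can be read. Over the 18 livers, as deviations from the diet means, APOV1 fell as the array spread rose (r = -0.79, rho = -0.79, p = 0.00042, adjusted p = 0.0042 over the 10 genes, permutation test). The relation held within HI0 (-0.74), HI7.5 (-0.85) and HI15 (-0.82), and without the 2 end livers (-0.75). With array spread removed, the SD of APOV1 between livers went from 0.25 to 0.16. Such relations were frequent on these arrays, with an r at least as large, of either sign, in 8.87% of the other named genes and in 11.4% of the 1000 nearest in level. None of the other 9 genes passed this test, the nearest being APOD at -0.46, a size reached by 50.6% of named genes, and APOA4 at -0.44. The mean array spread was 1.84 in HI0, 1.88 in HI7.5 and 1.87 in HI15.

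Around these genes, 120 of 184 listed genes of lipoprotein metabolism were measured, and 0 were called in any comparison of diets. At an unadjusted p under 0.05 the background over the named genes was 2.75% for HI15 against HI0, 2.65% for HI7.5 against HI0 and 2.56% for HI15 against HI7.5. Of 8 measured genes listed as apolipoproteins or particle proteins outside the 10 genes, 0 passed that level in any comparison. The place of each of them in plasma particles was not tested. PON1, an HDL-bound esterase, was at 0.13 ± 0.09 (SE) for HI15 minus HI0 and APOO at 0.14 ± 0.09.

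Of 36 measured genes of particle assembly and secretion, 0 passed the unadjusted level in any comparison, with medians of 0.01, 0.02 and -0.02. PLIN2, which coats lipid droplets, had -0.49 ± 0.28 (SE) for HI15 minus HI0, LPCAT3, which remodels phospholipid for VLDL, -0.16 ± 0.10, and TMEM41B, a scramblase of the endoplasmic reticulum, -0.29 ± 0.15 for HI15 minus HI7.5.

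Of 20 measured receptors and uptake genes, 2 were higher and 1 lower at the unadjusted level for HI15 against HI0, 2 higher and 0 lower for HI7.5 against HI0, and 0 for HI15 against HI7.5. DAB2, an endocytic adaptor of the LDL receptor family, was at 0.33 ± 0.13 (SE) for HI15 minus HI0 and 0.28 ± 0.13 for HI7.5 minus HI0. SORL1, a sorting receptor, was at -0.29 ± 0.12 for HI15 minus HI0, and SCARB1, the HDL receptor, at 0.24 ± 0.10 for HI7.5 minus HI0. SCARB2 was at 0.25 ± 0.12 for HI15 minus HI0. None of these is a call, since every adjusted p was 0.999.

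Of 25 measured genes of lipases and HDL remodelling, 1 was higher and 0 lower at the unadjusted level for HI15 against HI0, 0 and 1 for HI7.5 against HI0, and 2 and 0 for HI15 against HI7.5. LMF1, which matures the lipases, was at 0.21 ± 0.09 (SE) for HI15 minus HI0. ANGPTL4, an inhibitor of lipoprotein lipase, had -0.57 ± 0.65 for the same comparison. ANGPTL5 was at -0.25 ± 0.10 for HI7.5 minus HI0 and at 0.27 ± 0.10 for HI15 minus HI7.5, where ANGPTL1 was at 0.33 ± 0.15. Among 31 measured regulators, 1 was higher and 2 lower for HI15 against HI0, with PPARD, a nuclear receptor of fatty acids, at -0.26 ± 0.09, INSIG1 at -0.43 ± 0.15 and INSIG2 at 0.29 ± 0.12. For HI7.5 against HI0 it was again 1 higher and 2 lower, with PPARD at -0.25 ± 0.09, CREB3L3, a liver transcription factor of triglyceride metabolism, at -0.26 ± 0.12 and INSIG2 at 0.29 ± 0.12 (SE). The meal diets share the HI0 controls, so these values are not independent of one another. For HI15 against HI7.5, 1 regulator was higher, NR2F2 at 0.17 ± 0.08 (SE), and 1 lower, SCAP at -0.34 ± 0.16.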

How the data were processed

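The authors deposited 1 log2 signal for each probe set and array, computed by RMA; the submitters' processing notes name Affymetrix Expression Console 1.4. The method subtracts background, makes the distributions of the arrays alike and combines probes, which takes out differences in overall brightness. The aligner and genome build behind the probe sets are not given in the sources used here. Of 18226 probe sets, 12300 had 1 gene symbol in the platform annotation. The members, the gene lists and the tests were chosen with earlier results of these data known. A model of 3 diet means was fitted to the whole table of 18 arrays with limma 3.58.1 in R 4.3.3 (lmFit, then eBayes; 15 residual degrees of freedom before moderation). Tests were two-sided, with Benjamini-Hochberg adjustment across the 18226 probe sets. Correlations used deviations from diet means with 100000 permutations within diets, in Python 3.11.15 with numpy 2.4.6. For the SDs, genes of like mean signal are 1000 genes by rank of mean level, with equal numbers taken above and below. Near the top of the scale fewer lie above, so the set is smaller and mostly dimmer than the gene. The genes named of each list are among the up to 2 per direction and comparison with the smallest p, and not all of those are given. For the 4 genes of widest scatter the 3 of highest r were named. Scripts were tested on simulated data. Alternatives were quantile normalization, median centring, a filter on dim probe sets, a variance trend with robust prior, array weights and the last title numbers as covariate or block. Further ones were only the diets compared, each sample left out and, added after seeing the data, array spread. The number of arrays limits the precision.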

Additional observations from a re-analysis of the deposited data

Results flagged for a closer look

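Within a diet, 2 of the 30 groups of 6 livers held a sample farther from the rest than Dixon's 95% limit on the gap over the range; chance flags about 1 in 20 groups. In HI7.5, replicate 5 had APOA1 at 14.25, above the other livers at 14.05 to 14.11, a gap of 0.70 of the range. In HI15, replicate 5 had APOA1 at 14.05, below the others at 14.17 to 14.19, a gap of 0.857 of the range. On the other 2 probe sets of APOA1 the HI7.5 liver was again the highest of its diet, at 13.52 and 12.47. The HI15 liver was not low on these. It was the highest of its diet on the second brightest, at 13.53, and within the range on the dimmest, at 12.37. Without the one or the other liver APOA1 was at -0.10 for HI7.5 minus HI0 and at 0.01 for HI15 minus HI0.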

How the results depend on the processing

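Under every alternative, each omission of a sample included, 0 probe sets and 0 of the 10 genes were called in limma at an adjusted p under 0.05. The count of probe sets at an unadjusted p under 0.05 moved by more than 1.5 times in some settings: with array weights it was 938 in place of 573 for HI15 against HI0 and 791 in place of 523 for any difference among diets and 909 in place of 592 for the slope, and with array spread as a covariate 1225 in place of 576 for HI15 against HI7.5 and 871 for any difference. A filter at the median level, which leaves 9113 probe sets to test, gave 219, 205 and 240 for the 3 comparisons, 191 for any difference and 228 for the slope. Without HI0 replicate 6 it was 862 for HI15 against HI0 and 935 in place of 565 for HI7.5 against HI0, and without HI7.5 replicate 6 it was 987 for the latter. Some differences changed sign. APOA1 for HI15 minus HI0 was 0.00694 after quantile normalization, 0.000833 with medians subtracted, 0.000316 with array spread as a covariate, and 0.00667 and 0.0817 on its other probe sets. With array weights APOA5 was 0.0266 for HI15 minus HI7.5, and CETP was -0.11 for HI15 minus HI0 and -0.0520 for HI7.5 minus HI0. Leaving out 1 sample at a time gave ranges that cross 0 in each comparison. In HI15 minus HI0 these were APOA1 (-0.0360 to 0.0137), APOB (-0.0473 to 0.0267) and CETP (-0.0603 to 0.273). In HI7.5 minus HI0 they were APOB (-0.0133 to 0.0703), APOD (-0.0433 to 0.0827) and MTTP (-0.0173 to 0.111). In HI15 minus HI7.5 they were APOA5 (-0.121 to 0.095) and APOH (-0.0297 to 0.0283), whose main difference was 0.00. Of 45 pairs of genes 2 passed in the main analysis and with Spearman's rho, 1 with array spread removed, and 0 after quantile normalization, with medians subtracted or without the 2 end livers; the cause was not tested. The last numbers of the titles fall in runs of 6 with 1 sample of each diet, and the labels do not say what they mark. The replicate numbers, given in order of deposit, coincide with these runs. Over the 18 pairs of like-numbered samples the deviations from the diet means had a median r of -0.08, 5 pairs were above 0.1, and 0 of 18 samples were closest to their own number in both other diets. With the runs as a replicate block 472, 491 and 526 probe sets were at an unadjusted p under 0.05 in the 3 comparisons, and 0 were called. The other running numbers of the titles rise in blocks by diet, first HI0, then HI7.5, then HI15. What those numbers mark is not stated either. If they give an order of handling, it cannot be told apart from diet.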
